A study of Mus musculus with 6 samples.

Results

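Cholesterol is built from acetyl-CoA in a chain of enzymes that makes mevalonate, then isoprenoids, then squalene, closes squalene to lanosterol and trims lanosterol to cholesterol. The genes of the chain are switched on by SREBP transcription factors, which the escort protein SCAP carries from the endoplasmic reticulum to the Golgi for cleavage when sterol is scarce, and which INSIG proteins hold back when sterol is plentiful. Surplus cholesterol can be esterified and stored in lipid droplets, and microglia, the resident macrophages of the brain, take up sterol from cell debris besides making their own. The 29 genes described here are 20 enzymes of the chain, 7 genes of the SREBP machinery and 2 further SREBP targets. The 20 enzymes include Ggps1, which lies on a side branch. They were chosen by symbol from the 16179 genes of the deposited table, and the list does not hold every enzyme of the pathway.

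The libraries came from microglia of the hippocampus of male mice aged 10 months that carry the progranulin knockout B6.129S4(FVB)-Grntm1.1Far/Mmja, so every library shares this deletion; wild-type mice were not part of the comparison. Live CD11b+CD45lo cells, about 10000 for each library, were parted by flow cytometry on BODIPY, a dye of neutral lipid, into a lipid droplet-low fraction (BODIPY-low, 3 libraries) and a lipid droplet-high fraction (BODIPY-high, 3 libraries). Each library pools 2 mice, and whether the fractions of equal number were sorted from 1 pool is not stated, so p-values measure the spread between 6 libraries and no more. Values of the 3 libraries of a group stand in the order of replicates 1, 2 and 3. The comparison asks how the lipid droplet-high cells differ from the lipid droplet-low cells.

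Library depth was 24982215 to 34899425 recovered reads, with overlap between the groups. Grn, the targeted gene, read 416, 625 and 990.1 in the BODIPY-low and 468, 657 and 1614 in the BODIPY-high libraries, which overlapped; where along the gene these reads lie was not analysed, so they do not check the deletion. The 10 microglia markers summed to 1667812 to 1902692 normalised reads in BODIPY-low and to 1482597 to 1608982 in BODIPY-high libraries, and 2 of the 10 fell. All 12 tested markers of choroid plexus and ependyma rose (median log2 fold change 4.60), with summed levels of 3804 to 18960.4 in BODIPY-low and 153324 to 268338 in BODIPY-high libraries, and among them Foxj1 had no read in BODIPY-low replicates 2 and 3. Of 13 neutrophil markers 12 fell (median -5.58), with sums of 31561 to 83617 in BODIPY-low and 208 to 2410.2 in BODIPY-high libraries, where Elane and Cxcr2 had no read in replicates 2 and 3. Of 5 tested monocyte markers 3 fell, of 7 astrocyte markers 2 rose, and of 5 tested oligodendrocyte markers none passed limma (4 higher at an unadjusted p under 0.05, 1 by edgeR and 2 by DESeq2). The part of these cells in the differences described next was not tested except where a value is given.

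Of the 29 genes, 3 rose in BODIPY-high libraries, 1 fell and 25 did not pass, against 13.3% of all tested genes called in either direction. The genes that rose encode enzymes up to lanosterol: Sqle, squalene epoxidase, Fdps, farnesyl diphosphate synthase, and Hmgcs1, the cytosolic HMG-CoA synthase. The gene that fell was Lbr, the lamin B receptor, which is both a protein of the inner nuclear membrane and a sterol C14 reductase. Among all 12821 tested genes 9.79% rose and 3.52% fell, and the 29 genes had close shares, at 10.3% and 3.45%. Their median log2 fold change was -0.02, beside -0.01 over all tested genes. At an unadjusted limma p under 0.05, 4 of the 29 were higher and 2 lower, against 2059 and 1416 of the 12821 tested genes. In 6 of the 29 (20.7%, against 18% of all tested genes) the 3 BODIPY-high values all lay above the 3 BODIPY-low values, and in 1 (3.45%, against 13.4%) they all lay below. All 29 passed the filter on low values. In bulk RNA, fewer cells of a type and less RNA per cell cannot be told apart.

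**Figure D1:**
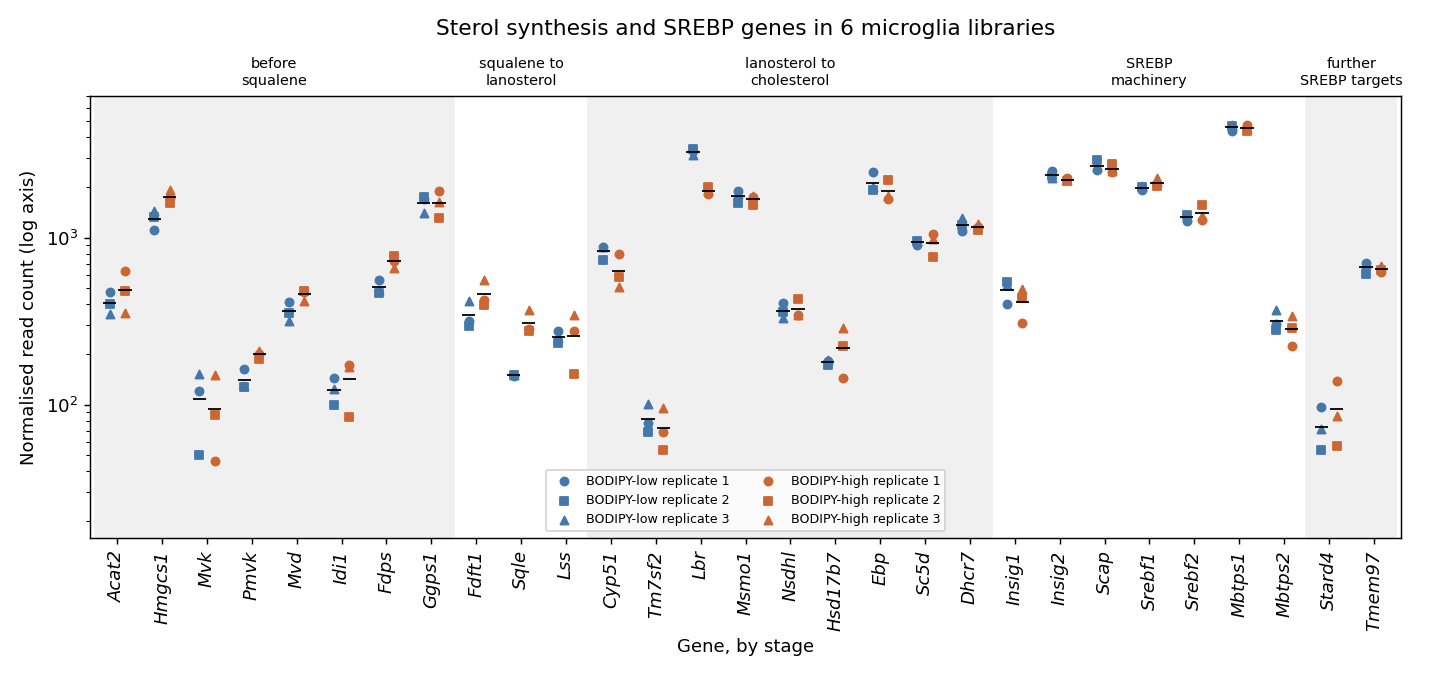
Normalised read count (log axis) of the 29 genes in each of the 6 libraries, grouped by stage, with BODIPY-low libraries in blue, BODIPY-high libraries in orange, a marker shape for each replicate number and a black line at each group mean. Sqle and Lbr are the genes whose groups stand farthest apart, while the SREBP machinery sits at close levels in both groups.

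Promoters are shown for the called genes that the RefSeq table (GRCm38.p6) holds, Hmgcs1 and Lbr, and for every member whose window holds the sterol element searched. Each window runs from 250 bases before to 50 bases after the annotated start, 5′ to 3′ on the strand of the gene. Capitals mark 3 motifs on either strand: TCACNCCA, a form of the sterol element that SREBP binds, CCAAT, the box bound by NF-Y (ATTGG on the other strand), and GGGCGG, the GC box bound by Sp1 (CCGCCC on the other strand).
Hmgcs1, chr13:119690101-119690400, + strand: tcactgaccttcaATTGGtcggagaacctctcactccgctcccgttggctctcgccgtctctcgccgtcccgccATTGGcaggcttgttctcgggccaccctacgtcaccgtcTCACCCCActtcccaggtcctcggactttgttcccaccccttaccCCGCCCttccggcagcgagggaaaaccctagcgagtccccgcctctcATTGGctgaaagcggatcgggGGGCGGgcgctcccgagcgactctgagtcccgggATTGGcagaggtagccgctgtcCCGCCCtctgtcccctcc
Srebf2, chr15:82147019-82147318, + strand: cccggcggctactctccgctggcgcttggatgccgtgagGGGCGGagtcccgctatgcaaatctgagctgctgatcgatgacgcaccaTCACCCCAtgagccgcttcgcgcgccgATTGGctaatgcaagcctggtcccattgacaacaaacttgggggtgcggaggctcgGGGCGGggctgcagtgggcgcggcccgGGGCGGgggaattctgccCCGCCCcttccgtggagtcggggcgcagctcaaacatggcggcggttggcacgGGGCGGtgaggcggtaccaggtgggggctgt
Msmo1, chr8:64733529-64733828, - strand: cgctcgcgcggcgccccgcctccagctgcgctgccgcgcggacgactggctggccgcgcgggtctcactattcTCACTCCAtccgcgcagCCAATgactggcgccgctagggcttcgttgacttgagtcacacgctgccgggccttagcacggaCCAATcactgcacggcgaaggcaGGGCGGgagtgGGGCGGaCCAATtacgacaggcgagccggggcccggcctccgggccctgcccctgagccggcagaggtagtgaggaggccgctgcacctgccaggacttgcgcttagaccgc
Lbr, chr1:181842352-181842651, - strand: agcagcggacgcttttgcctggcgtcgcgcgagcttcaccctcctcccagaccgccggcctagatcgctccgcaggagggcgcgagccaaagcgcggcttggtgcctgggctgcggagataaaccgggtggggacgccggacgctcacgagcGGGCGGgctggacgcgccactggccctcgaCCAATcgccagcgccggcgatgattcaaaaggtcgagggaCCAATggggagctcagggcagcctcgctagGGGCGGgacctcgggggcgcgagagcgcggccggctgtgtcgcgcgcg

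In the Hmgcs1 window the sterol element starts 137 bases before the start, in the Srebf2 window 162 and in the Msmo1 window 177. The Lbr window holds 2 CCAAT boxes and 2 GC boxes and no match to the sterol element. Over the 33 windows of the 25 members in the table, 3 windows (9.09%) held the sterol element, 22 (66.7%) the CCAAT box and 26 (78.8%) the GC box. Over all 32851 windows counted the shares were 4.36%, 37.4% and 35.7%. Windows on chromosome 18, where the member Stard4 lies, were left out of both counts. These are matches of letters, and base composition was not matched between the sets. Of the 3 genes with the sterol element, Hmgcs1 rose while Srebf2 and Msmo1 did not pass the test.

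The first stage leads from acetyl-CoA to the isoprenoids. Of its 8 enzymes 2 rose by limma, 2 by DESeq2 and 1 by edgeR, and the median log2 fold change was 0.29. Over all tested genes limma called 9.79% higher and 3.52% lower, and stages of so few enzymes give only coarse shares. None fell by any of these tools, also at an unadjusted limma p under 0.05, where 3 were higher. Over all 12821 tested genes 2059 were higher and 1416 lower at that unadjusted mark. In each BODIPY-high library the median enzyme of this stage lay above the BODIPY-low mean, by 0.47, 0.28 and 0.43 on the log2 scale, and the BODIPY-low libraries themselves lay at 0.21, -0.06 and -0.07.

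Hmgcs1 (chromosome 13, 119690379 to 119708260) makes HMG-CoA, the precursor of mevalonate. The BODIPY-low libraries held 1105, 1327 and 1452 normalised reads of it, and the BODIPY-high libraries 1737, 1608 and 1934. The lowest BODIPY-high library lay above the highest BODIPY-low library. The means were 1294 ± 176 and 1760 ± 164 (SD, n = 3 each), a ratio of 1.36. On the log2 scale the rise by limma was 0.45 (adjusted p = 0.0418, SE 0.13). The call was lost by edgeR (adjusted p = 0.0510) and when any single BODIPY-low library (adjusted p = 0.115, 0.0977 and 0.05004), BODIPY-high replicate 1 (0.0671) or BODIPY-high replicate 3 (0.158) was left out. An antisense gene, Gm48342, overlaps 12.1% of its exon length.

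Fdps (chromosome 3, 89093588 to 89101959) makes farnesyl diphosphate, the branch point between sterols, prenylated proteins and ubiquinone. It read 559, 465 and 489 in the BODIPY-low fraction against 729, 778 and 662 in the BODIPY-high fraction. The groups did not overlap, and their closest values were those of BODIPY-low replicate 1 and BODIPY-high replicate 3. Mean levels were 504 ± 49.1 and 723 ± 58.4 (SD, n = 3 each), a ratio of 1.43, and limma put the rise at 0.52 on the log2 scale (SE 0.14, adjusted p = 0.0344). Leaving out BODIPY-low replicate 1 kept the call, and leaving out any of the other 5 libraries ended it (adjusted p between 0.0629 and 0.134). A gene model on the same strand, Gm43738, shares 26.7% of the exon length of Fdps, so part of the Fdps reads may have been set aside.

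Pmvk and Mvd, the phosphomevalonate kinase and the diphosphomevalonate decarboxylase that follow mevalonate kinase, kept their groups apart without passing the test. Pmvk read 165, 127 and 129.9 against 203, 188 and 209.8, with a log2 fold change of 0.52 (limma 95% interval 0.03 to 1.01, adjusted p = 0.162). Mvd read 409, 356 and 319 against 476, 478 and 419.5, with a log2 fold change of 0.34 (-0.02 to 0.71, adjusted p = 0.207). The lowest BODIPY-high library of Mvd was thus only just above its highest BODIPY-low library.

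The other 4 enzymes of the stage overlapped between the groups. Acat2, the cytosolic thiolase that joins acetyl-CoA units, ran from 347 to 476 in BODIPY-low and from 353 to 629 in BODIPY-high libraries (log2 fold change 0.23, interval -0.25 to 0.71). The mouse genome holds a close copy of it, Acat3, so its reads are uncertain. Mvk, mevalonate kinase, was among the most variable of the 29 genes, at 50.1 to 153 and 46.2 to 150.2, and its interval of -1.29 to 0.89 leaves a 2-fold fall possible. Idi1, which isomerises isopentenyl diphosphate, spanned 99.1 to 145 and 84.9 to 172 (0.15, -0.55 to 0.86). Ggps1, which makes geranylgeranyl diphosphate for protein prenylation and lies off the sterol line, had means of 1622 ± 187 and 1617 ± 303 (SD, n = 3 each) and a log2 fold change of -0.02 (-0.34 to 0.31).

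Squalene synthase, squalene epoxidase and lanosterol synthase form the second stage, and 1 of the 3 rose, against 9.79% of all tested genes. Sqle (chromosome 15, 59315077 to 59331192) adds oxygen to squalene and is a slow step of the chain. Normalised reads of Sqle numbered 149, 151 and 150.3 in the BODIPY-low fraction, and 285, 276 and 369 in the BODIPY-high fraction. BODIPY-low libraries differed by 0.896% of their mean (coefficient of variation), and every BODIPY-high library lay well above them. So small a spread in 3 libraries does not measure how steady Sqle is between such libraries. The group means were 150.1 ± 1.35 and 310.1 ± 51.6 (SD, n = 3 each), a ratio of 2.07, or 1.03 on the log2 scale (SE 0.20). The adjusted p was 0.00736 by limma, 0.00632 by edgeR and 2.59e-04 by DESeq2. The call held under all 16 alternatives, with log2 fold changes of 0.90 to 1.11 and adjusted p up to 0.0436. No other annotated gene overlaps the exons of Sqle.

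The rise of choroid plexus and ependyma markers stands beside it. Their sum was 18960.4, 3804 and 7366 in the BODIPY-low libraries, between which Sqle stayed within 149 to 151. Across the BODIPY-high libraries the sum was 255747, 153324 and 268338, and Sqle was lowest where the sum was lowest and highest where it was highest. Their part in the rise of Sqle, Fdps and Hmgcs1 was not tested.

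Fdft1, squalene synthase, read 317, 295 and 418 in the low and 425, 395 and 559 in the high fraction. The groups overlapped, since BODIPY-low replicate 3 exceeded BODIPY-high replicate 2, and the log2 fold change of 0.42 (-0.01 to 0.86, limma adjusted p = 0.200) did not pass. Each BODIPY-high library read above the BODIPY-low library of its number. With the replicate number as a block Fdft1 also did not pass (limma adjusted p = 0.106). The antisense neighbour Ctsb overlaps 18.3% of its exon length. Lss, lanosterol synthase, had means of 255 ± 22.3 and 257 ± 97.5 (SD, n = 3 each), with BODIPY-high replicate 2 at 152, below every other library, and BODIPY-high replicate 3 at 344, above them all.

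**Figure D2:**
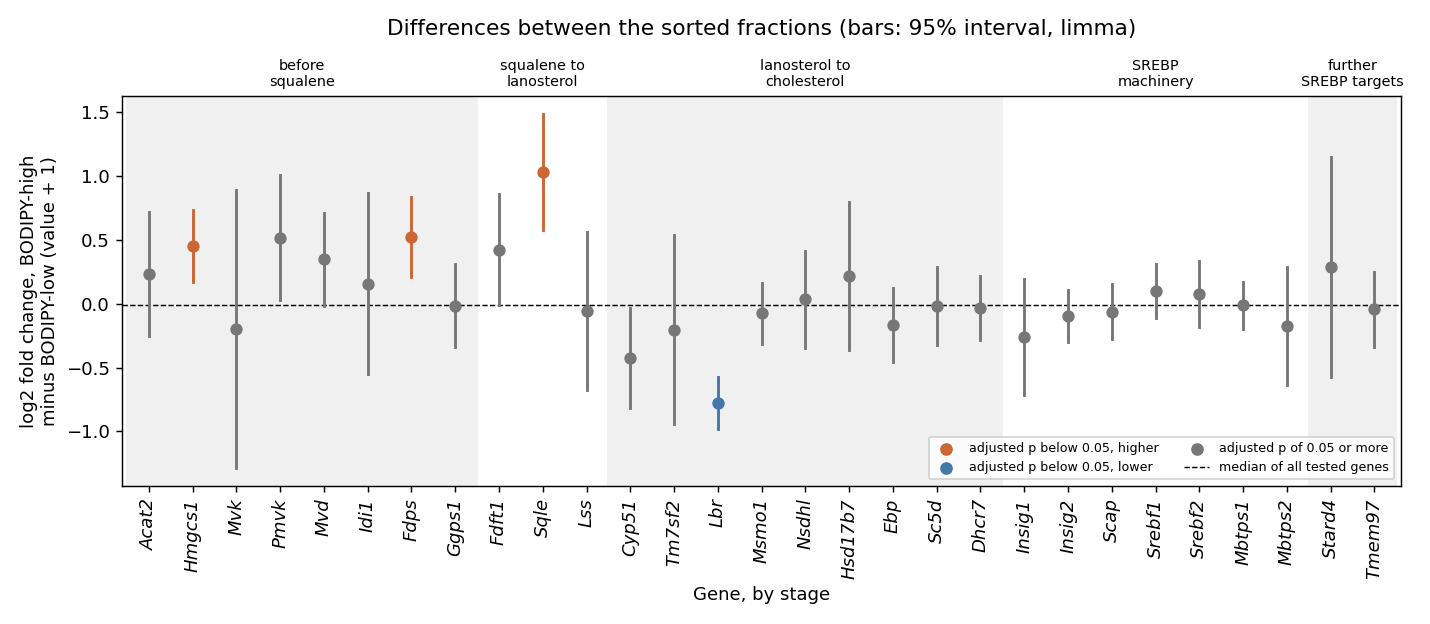
Log2 fold change, BODIPY-high minus BODIPY-low on the log2(value + 1) scale, of each of the 29 genes (point) with its 95% interval from limma (bar), in pathway order, and the median of all tested genes as a dashed line. The 3 genes past the threshold upward, at 0.45 to 1.03, stand before lanosterol, and the only gene past it downward, Lbr at -0.78, stands after lanosterol.

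The third stage turns lanosterol into cholesterol. Of its 9 enzymes none rose and 1 fell, against 9.79% and 3.52% of all tested genes. The median log2 fold change was -0.07, with a range of -0.78 to 0.22. By edgeR and by DESeq2 there was also 1 fall and no rise. At an unadjusted limma p under 0.05 there were 2 lower and 0 higher, against 1416 and 2059 of all 12821 tested genes. Lbr (chromosome 1, 181815335 to 181843046) read 3315, 3383 and 3136 in the BODIPY-low and 1816, 2002 and 1905 in the BODIPY-high libraries. The gap between the groups was several times the spread within either. It fell from a mean of 3278 ± 127 to 1908 ± 93.5 (SD, n = 3 each), a ratio of 0.582, or by 0.78 on the log2 scale (SE 0.09, limma adjusted p = 3.30e-04). All 16 alternatives kept this call, with log2 fold changes of -0.82 to -0.75. Dnah14 on the other strand overlaps 9.24% of the exon length of Lbr, and the rRNA gene Gm26004 on the same strand 1.45%.

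Lbr is also known for shaping the lobed nucleus of neutrophils, and neutrophil markers fell in the same libraries. Across the BODIPY-low libraries their sum was 83617, 31561 and 32016, and the library with the highest sum did not have the highest Lbr. In the BODIPY-high libraries the sum was 527, 2410.2 and 208, and the library with the highest sum also had the highest Lbr, at 2002. The part of neutrophils in the fall of Lbr was not tested.

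Tm7sf2, the second sterol C14 reductase, stood at 77.8, 68.2 and 101 against 68.8, 53.2 and 95.3, overlapping (log2 fold change -0.20, interval -0.94 to 0.54). Per kilobase of merged exon, the mean level of Lbr was 689 in the low and 401 in the high fraction, and that of Tm7sf2 was 18.7 and 16.5. Exons of Vps51 on the same strand cover 12.1% of Tm7sf2.

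**Figure D3:**
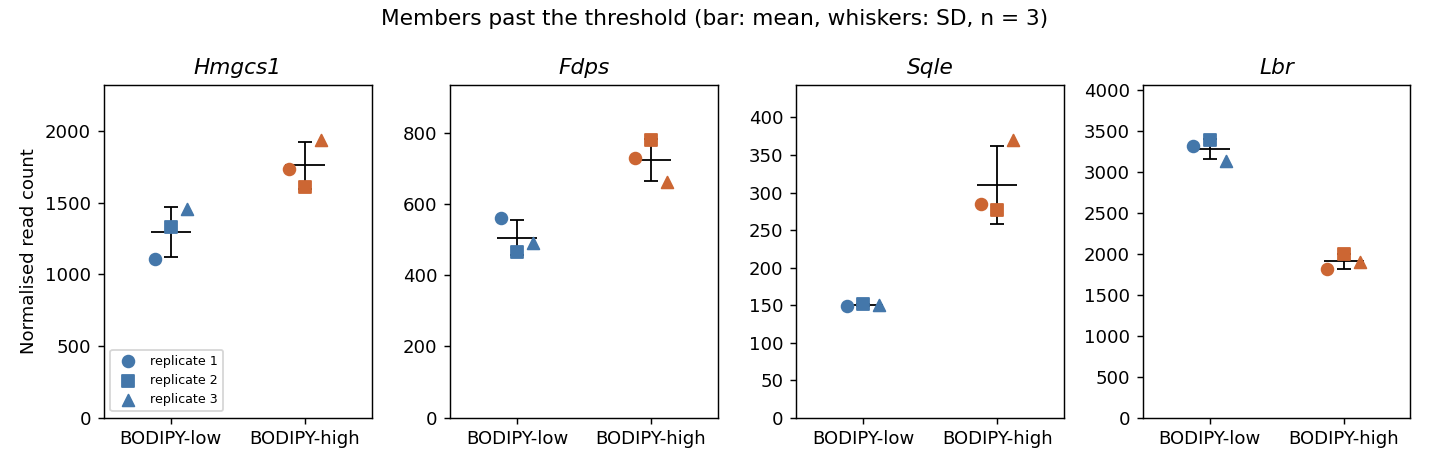
Normalised read counts of the 4 genes past the threshold in BODIPY-low (blue) and BODIPY-high (orange) libraries, each point a library, with the group mean (bar) and SD (whiskers, n = 3). Hmgcs1, Fdps and Sqle are higher and Lbr is lower in all 3 BODIPY-high libraries than in any BODIPY-low library.

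Cyp51, the lanosterol demethylase that works just before Lbr and Tm7sf2, read 882, 736 and 881 in the low and 801, 579 and 506 in the high fraction. BODIPY-high replicate 1 lay within the BODIPY-low range and the other two BODIPY-high libraries lay below it. The log2 fold change of -0.43 (interval -0.82 to -0.04) had an unadjusted p of 0.0343 and did not pass (limma adjusted p = 0.146), but passed without BODIPY-high replicate 1 (-0.62, adjusted p = 0.0290).

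The remaining 6 enzymes of the stage overlapped between the groups. Msmo1, the C4 methyl oxidase, had 1785 ± 151 and 1693 ± 110 normalised reads (SD, n = 3 each). Nsdhl and Hsd17b7, which take the C4 carbons off with it, had log2 fold changes of 0.03 (-0.35 to 0.41) and 0.22 (-0.36 to 0.80). For Hsd17b7 the BODIPY-low libraries lay at 173 to 186 and the BODIPY-high libraries at 144 to 287, below and above them. Ebp, the sterol isomerase, was the highest of the 29 genes per kilobase of merged exon (924 in the low and 823 in the high fraction) and had a log2 fold change of -0.17 (-0.46 to 0.12). Sc5d, the lathosterol oxidase, and Dhcr7, which makes cholesterol from 7-dehydrocholesterol, had fold changes of -0.02 (-0.32 to 0.29) and -0.03 (-0.29 to 0.22) on the log2 scale.

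Summed over the 11 enzymes up to lanosterol, the normalised reads were 5242 to 5436 in BODIPY-low and 5831 to 6886 in BODIPY-high libraries, without overlap and with a ratio of means of 1.23. Without Hmgcs1 the groups overlapped in this sum, with BODIPY-high replicate 2 below BODIPY-low replicate 1. Summed over the 9 later enzymes, the normalised reads were 10397 to 11227 and 8844 to 8949, also without overlap, with a ratio of 0.824. Leaving Lbr out of these, the sums over the other 8 were 7013 to 7913 and 6946 to 7028, which overlapped, with a ratio of 0.930. Long and abundant transcripts weigh most in these sums, which are given as a description. With all 20 enzymes together the ratio was 0.957, and the range of 15645 to 16663 in BODIPY-low libraries overlapped that of 14780 to 15730 in BODIPY-high libraries.

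None of the 7 genes of the SREBP machinery passed the test by limma, edgeR or DESeq2 (0 at an unadjusted limma p under 0.05), and their log2 fold changes lay between -0.26 and 0.10. Limma called 13.3% of all 12821 tested genes, and 7 genes give only a coarse share beside it. At the unadjusted mark 2059 of all tested genes were higher and 1416 lower. Srebf2, the factor that acts mainly on sterol genes, stood at 1257, 1370.3 and 1338 in the low and 1272, 1577 and 1341 in the high fraction. These values overlapped, and the log2 fold change was 0.07 (interval -0.18 to 0.33). Srebf1, which acts more on fatty acid genes in its SREBP-1c form, read 1919.8, 2000.0 and 2028 against 2066, 2041 and 2275. All BODIPY-high values of Srebf1 lay above all BODIPY-low values, but the shift was small and did not pass (0.10, interval -0.11 to 0.31, limma adjusted p = 0.559). Reads per gene do not part the SREBP-1a and SREBP-1c forms. Srebf1 exceeded Srebf2 per kilobase of merged exon in both groups, at 352 against 184 in BODIPY-low and 378 against 194 in BODIPY-high libraries.

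Insig1, the retention protein that is itself an SREBP target, read 400.2, 544 and 518 against 307, 434 and 491. It overlapped between the groups, and its log2 fold change was -0.26 (interval -0.71 to 0.19, limma adjusted p = 0.463). Insig2, the form that does not depend on SREBP in the same way, had means of 2381 ± 124 and 2227 ± 57.8 (SD, n = 3 each; -0.10, -0.30 to 0.11). Insig2 was the more abundant form per kilobase of merged exon, at 686 against 158 for Insig1 in BODIPY-low and 641 against 133 in BODIPY-high libraries. Scap, the escort, and Mbtps1, the first of the Golgi proteases that free SREBP, had log2 fold changes of -0.06 (-0.28 to 0.15) and -0.01 (-0.20 to 0.17). Mbtps2, the second protease, had -0.18 (-0.64 to 0.28), and exons of Yy2 on the same strand cover 28.4% of it.

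The 2 further SREBP targets did not pass limma, edgeR or DESeq2 (0 at an unadjusted limma p under 0.05), where limma called 13.3% of all tested genes. A count over 2 genes is too coarse to set beside that share. Stard4, a carrier of sterol in the cytosol, was low and variable, at 97.2, 53.3 and 71.5 against 139, 56.6 and 85.8 (log2 fold change 0.29, interval -0.57 to 1.15). Tmem97, the sigma-2 receptor, which binds the cholesterol transporter of the lysosome, had 667 ± 54.6 and 645 ± 27.1 (SD, n = 3 each; -0.05, -0.34 to 0.25). For 22 of the 25 genes that did not pass, the 95% interval lay inside a 2-fold change in either direction; the exceptions were Mvk, Pmvk and Stard4.

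Neighbouring gene lists were counted in the same fit, in which 9.79% of all tested genes rose and 3.52% fell. At an unadjusted limma p under 0.05, 2059 of the 12821 tested genes were higher and 1416 lower. None of 16 isoprenoid branch genes, such as the prenyltransferases and the enzymes of ubiquinone and dolichol, passed limma, edgeR or DESeq2 (1 higher and 1 lower at an unadjusted limma p under 0.05), and their median log2 fold change was -0.06. The groups stood apart upward in 1 of the 16 and downward in 1. Of 21 tested genes of a broader list 1 rose and 1 fell (3 fell by DESeq2). This list holds genes of sterol sensing, transport and turnover at the endoplasmic reticulum, and also Paqr3, Fbxw7, the NF-Y subunits and Sp1. Rnf139, the ubiquitin ligase TRC8, fell by 0.43 on the log2 scale, with means of 5266 ± 382 and 3913 ± 188 (SD, n = 3 each, limma adjusted p = 0.0101). Pgrmc1, a heme protein that binds and aids sterol enzymes of the cytochrome P450 type, rose from 3113 ± 161 to 3929.9 ± 305 (0.33, adjusted p = 0.0394). Rnf139 no longer passed when BODIPY-low replicate 2 (adjusted p = 0.0577) or BODIPY-high replicate 3 (0.0564) was left out. Pgrmc1 passed only with BODIPY-low replicate 1 or BODIPY-high replicate 2 as the library left out, and the other 4 choices gave adjusted p of 0.0799 to 0.150013. In this list the groups stood apart downward in 5 of 21 genes and upward in 1 of 21, against 13.4% and 18% of all tested genes.

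Among 6 tested enzymes of oxysterol and bile acid side paths, 1 rose and none fell (1 and 0 by edgeR, 1 and 1 by DESeq2, 1 and 1 at an unadjusted limma p under 0.05). In 2 of the 6 the groups stood apart upward, and in 0 downward. The riser was Cyp7b1, an oxysterol hydroxylase, which had no read in any BODIPY-low library and 35.8, 40.8 and 11.9 normalised reads in the BODIPY-high libraries (limma adjusted p = 0.00800). The gene that DESeq2 alone called lower was Ch25h, the cholesterol 25-hydroxylase, which is named here after its values were seen. It read 157, 251 and 694 in the BODIPY-low and 107, 82.7 and 184 in the BODIPY-high libraries, which overlapped, with a log2 fold change of -1.35 by limma (adjusted p = 0.0904) and -1.56 by DESeq2 (adjusted p = 0.00634). Of 15 fatty acid targets of SREBP 5 rose and none fell, against 9.79% and 3.52% of all tested genes. The counts were 4 and 0 by edgeR, 5 and 0 by DESeq2, and 7 and 1 at an unadjusted limma p under 0.05. Over all 12821 tested genes 2059 were higher and 1416 lower at that unadjusted mark. Their median log2 fold change was 0.20. The groups stood apart upward in 6 of the 15 and downward in 2, against 18% and 13.4% of all tested genes. The risers were Acacb, an acetyl-CoA carboxylase (5.40 ± 6.77 to 75.5 ± 48.3, SD, n = 3 each), Me1, the cytosolic malic enzyme (33.8 ± 13.7 to 416 ± 160.0), the desaturase Fads2 (31.5 ± 6.73 to 249 ± 66.2), the acetyl-CoA synthetase Acss2 (79.7 ± 19.6 to 301 ± 114), and the elongase Elovl6 (14.8 ± 5.46 to 48.4 ± 4.95), with log2 fold changes of 4.12, 3.59, 2.93, 1.87 and 1.71 and limma adjusted p between 1.89e-04 and 0.0412. Acacb, with a BODIPY-low mean of 5.40, likewise reached the filter only through its BODIPY-high values. The call of Acacb was lost without BODIPY-high replicate 3 (0.0745). With 1 library left out the call of Elovl6 held only in the absence of BODIPY-low replicate 1 (adjusted p between 0.0692 and 0.139 otherwise, and 0.0616 by edgeR). Choroid plexus markers had a median rise of 4.60 beside these genes, and their part was not tested.

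**Figure D4:**
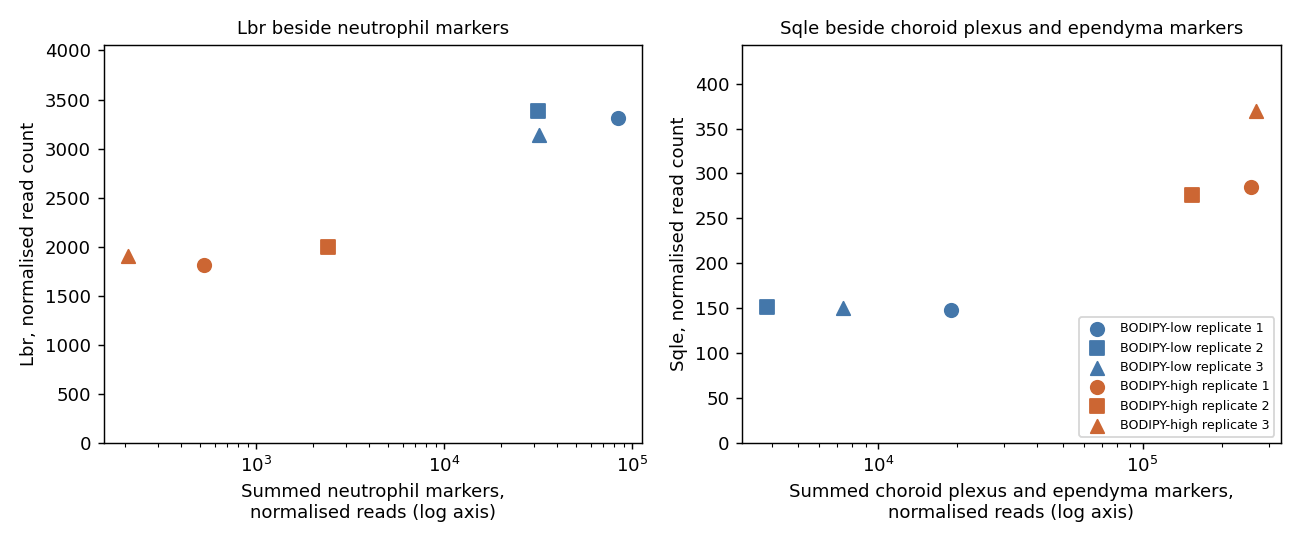
Normalised read counts of Lbr against the sum of the 13 neutrophil markers (left) and of Sqle against the sum of the 12 choroid plexus and ependyma markers (right), each point a library, marker sums on a log axis. Within BODIPY-low libraries the neutrophil sum ran from 31561 to 83617 with Lbr at 3136 to 3383, and the choroid plexus sum ran from 3804 to 18960.4 with Sqle at 149 to 151. Within BODIPY-high libraries Lbr was highest where the neutrophil sum was highest, and Sqle where the choroid plexus sum was highest. The part of these cells in either difference was not tested.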

How the data were processed

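Libraries were made with SmartSeq v4 and Nextera XT, per the labels' protocols. Per the submitters' processing notes and the design text, reads were mapped with STAR 2.5.3a to mm10 (mm9 is also listed) and counted per gene by STAR; annotation and strand setting were not given in the sources used here. The deposited values are a signal the authors made by dividing read counts by 1 size factor per library. Whole reads were recovered: 100% of nonzero values were whole multiples of the smallest value of their library within 0.01 read. Unmarked strand means that overlapping genes cannot be told apart.

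Each gene with a mean of at least 10 (12821 genes) was tested with limma 3.58.1 under R 4.3.3 (two-sided, trended variance, no block) on log2(value + 1), with Benjamini-Hochberg adjustment over all tested genes and a threshold of 0.05. Fold changes are on this scale, BODIPY-high minus BODIPY-low, and understate changes of low genes. edgeR 4.0.16 and DESeq2 1.42.0 on the recovered reads were alternatives. GENCODE M21 (GRCm38) gave coordinates and merged exon lengths by symbol (96.0% matched), and RefSeq gave promoters. Intervals are at 95%.

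Members and lists were chosen with earlier results of these data known. All 29 members are described, those called or without overlap by library; of related lists, called genes are named, and the fatty acid list names 5 where at most 4 were planned.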

Additional observations from a re-analysis of the deposited data

How the results depend on the processing

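Over 16 alternatives for each of the 29 genes, 452 values stayed on the same side of the threshold, 11 lost a call and 1 gained one. The calls lost were those of Hmgcs1 and Fdps, and the call gained was that of Cyp51. With each library left out in turn, 2 to 3 of the 29 genes were called (1 to 2 higher and 1 to 2 lower), and over all tested genes 908 to 1648 were called (689 to 1295 higher and 151 to 523 lower). The lowest total, 908, came without BODIPY-high replicate 3, and falls numbered 180, 151 and 219 without BODIPY-low replicate 2, BODIPY-low replicate 3 and BODIPY-high replicate 3. The cause was not tested. The labels give both groups the numbers 1 to 3 and do not say whether equal numbers share a pool, so the numbers were not taken as pairs. Same-numbered libraries deviated together weakly (correlations of 0.11, 0.14 and 0.07). Libraries of unlike number had correlations of -0.12 to 0.002, so each library correlated best with its own number. Pairs therefore remain possible. With the replicate number as a block, 1451 genes rose in place of 1255 and 760 fell in place of 451. Of the 29 genes 4 were called with this block, 3 higher and 1 lower. TMM scaling moved the median of all tested genes by -0.01. Among the 25 genes not called, the intervals of Mvk (-1.29 to 0.89), Stard4 (-0.57 to 1.15) and Pmvk (0.03 to 1.01) include log2 changes of more than 1 in size. How far depth or the spread between libraries sets these widths was not tested.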
